A study of Mus musculus with 40 samples.

Results

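The transforming growth factor-beta (TGF-beta) core pathway was followed through rib repair by 10 genes, chosen by their symbols: the ligands Tgfb1, Tgfb2 and Tgfb3, the receptors Tgfbr1, Tgfbr2 and Tgfbr3, and the Smads Smad2, Smad3, Smad4 and Smad7. All 10 were among the 21204 genes tested. Bulk RNAseq was made from pieces of rib cage that held bone, bone marrow and intercostal muscle, taken from female Wild Type mice at baseline or after removal of a rib segment, on days 0, 2, 5 and 14 post-resection (dpr). Immature mice were 7 weeks old and mature mice were over 10 months old; the labels name no transgene or agent, and the strain is written C75BL/6 in the study's methods. Each group held n = 4 samples, except mature 5dpr (n = 3, replicate 2 not analysed here). Baseline is the state before resection in the study, although the labels describe all tissue as collected afterwards. Nothing in the labels ties a sample to 1 mouse, so all p-values measure the spread between these samples.

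TGF-beta ligands are secreted in a latent form, are held in the extracellular matrix and bone by binding proteins, and act only after release. An active ligand brings the type II receptor (Tgfbr2) together with the type I receptor (Tgfbr1), while the co-receptor Tgfbr3 (betaglycan) presents ligand, above all TGF-beta2. The type I receptor phosphorylates Smad2 and Smad3, which enter the nucleus with Smad4, and Smad7 is an inhibitor that the pathway itself induces. In bone repair the pathway is known for recruiting progenitor cells, for cartilage formation and for matrix deposition, and platelets and macrophages are known sources of TGF-beta1.

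Total counts per sample ranged from 6057756 to 21537070. Values are CPM, counts scaled to a common library size with TMM (trimmed mean of M-values) factors, with log2 fold changes and adjusted p-values from edgeR's quasi-likelihood test over all genes, at a threshold of 0.05. No measured marker of 12 cell type lists was at 0 through a whole group, which held also for types that the label does not name. At baseline the 6 osteoblast markers summed to between 4517 and 13085 CPM. The 8 skeletal muscle markers summed to between 35918 and 86757 CPM at baseline. That sum was 99719 to 203238 CPM at 0dpr and 12560 to 25259 CPM at 2dpr over both ages, and 8 of 8 muscle markers fell between these stages at both ages. The 8 macrophage markers summed to between 451 and 670 CPM at 0dpr and to between 3013 and 4082 CPM at 2dpr, and 8 of 8 rose at both ages. The 7 fibroblast and stroma markers summed to between 1329 and 5873 CPM at baseline and to between 18647 and 35857 CPM at 14dpr. Marrow markers were lower. The 5 measured erythroid markers summed to between 10032 and 17713 CPM at baseline and to between 333 and 4862 CPM at 14dpr. For the 7 neutrophil markers these ranges were 6736 to 20926 CPM and 1150 to 4445 CPM. From 0 to 2dpr, 5 of 5 erythroid and 6 of 6 B cell markers fell at both ages. The part of these shifts in the results on TGF-beta genes was not tested, and in a bulk sample fewer cells of a type and less RNA per cell cannot be told apart. A pair of samples stood apart from their groups: mature 2dpr replicate 3 (median r of 0.891 with its own group) and immature 0dpr replicate 1 (0.919), against 0.943 to 0.983 for the others.

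**Figure D1:**
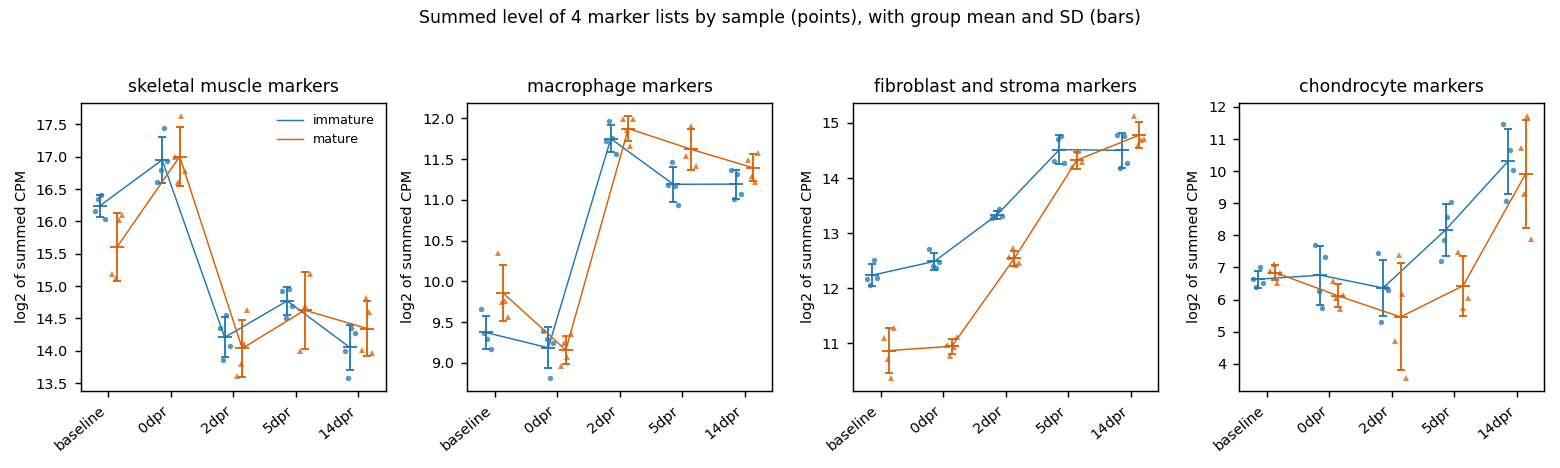
Log2 of the summed CPM (y axis) of the markers of 4 cell types by stage (x axis), 1 point for each of the 39 samples, with bars for group mean and SD and immature and mature mice in separate colours. Muscle markers peak at 0dpr and are low from 2dpr on, the means of macrophage markers peak at 2dpr, and stroma markers are highest at 5 and 14dpr.

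Between 0 and 2dpr the TGF-beta genes moved in both directions. In immature mice 7 of 10 changed, 4 higher (Tgfb1, Tgfbr1, Tgfbr2, Smad2) and 3 lower (Tgfb3, Tgfbr3, Smad3). In mature mice 6 of 10 changed, 3 higher (Tgfbr1, Tgfbr2, Smad2) and 3 lower (Tgfb3, Tgfbr3, Smad3). Of all genes tested, 44% were called in immature mice (21.8% higher, 22.2% lower) and 47.6% in mature mice (22.7% higher, 24.9% lower); calls were thus common among all genes as well. The median log2 fold change of the 10 genes was -0.05 in immature and 0.11 in mature mice, beside -0.04 and -0.05 over all genes. Without mature 2dpr replicate 3 the mature count was 8, with Tgfb1 higher and Tgfb2 lower as well, and without immature 0dpr replicate 1 the immature count was 6, with Smad2 lost.

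**Figure D2:**
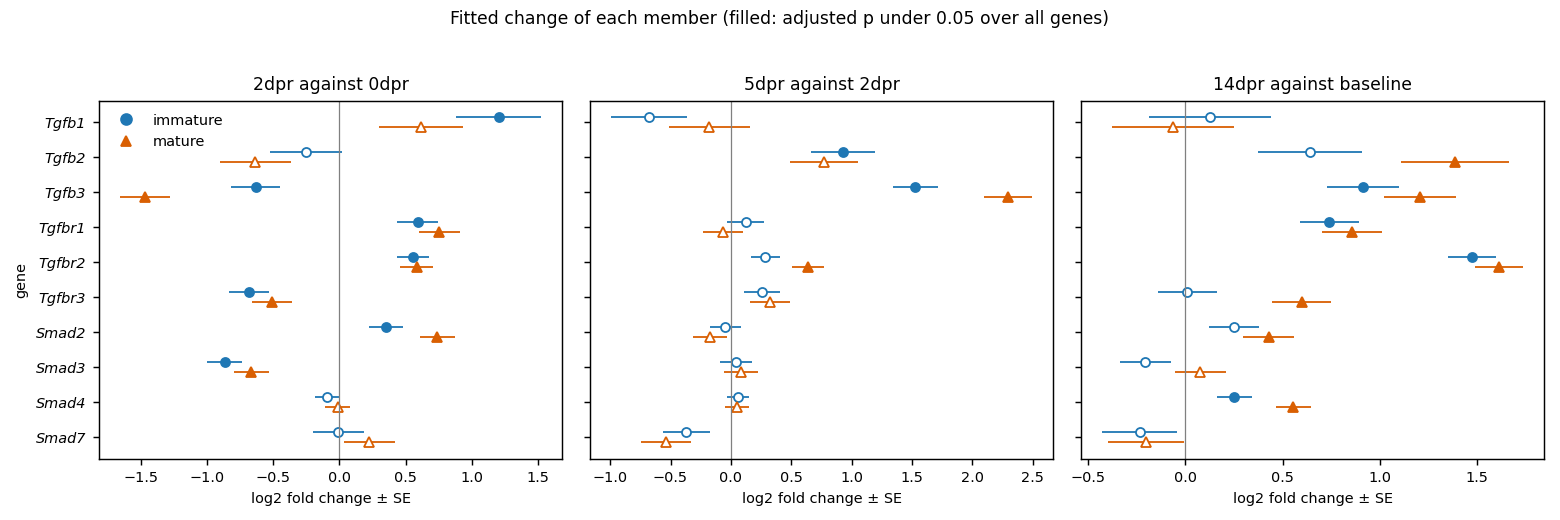
Log2 fold changes (x axis, bars are standard errors) of the 10 genes in immature and mature mice, for 2dpr against 0dpr, 5dpr against 2dpr and 14dpr against baseline; filled points passed the threshold. Tgfb3 lies left of 0 in the first panel and right of 0 in the other panels at both ages, and Tgfbr2 is the gene farthest to the right at 14dpr.

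From 2 to 5dpr fewer members were called, all of them higher: Tgfb2 and Tgfb3 rose in immature mice and Tgfb3 and Tgfbr2 rose in mature mice, 2 of 10 at each age, against 4.37% and 8.16% of all genes called higher and 8.05% and 14.5% called in either direction. From 5 to 14dpr no member passed edgeR's test at either age (3.18% and 4.18% of all genes did), although 4 of 10 at each age had an unadjusted p under 0.05 (14% and 18.4% of all genes), and DESeq2 called 1 in immature and 2 in mature mice. By 14dpr, 4 of 10 were above baseline in immature mice and 7 of 10 in mature mice with none below, where 16.4% and 17.1% of all genes were called higher, 15.1% and 16.4% lower, and 31.4% and 33.5% in either direction. The median log2 difference of the members from baseline was 0.25 and 0.58, beside -0.04 and -0.03 over all genes. These comparisons share samples: each stage serves the step before it and the step after it, and baseline serves both 0 and 14dpr. Over all 5 stages at once, 8 of 10 varied in immature mice (Smad4 and Smad7 did not pass, adjusted p = 0.124 and 0.189, quasi-likelihood F-test) and 8 of 10 in mature mice (Tgfb1 and Smad7 did not pass, 0.283 and 0.148), against 54.3% and 63% of all genes.

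**Figure D3:**
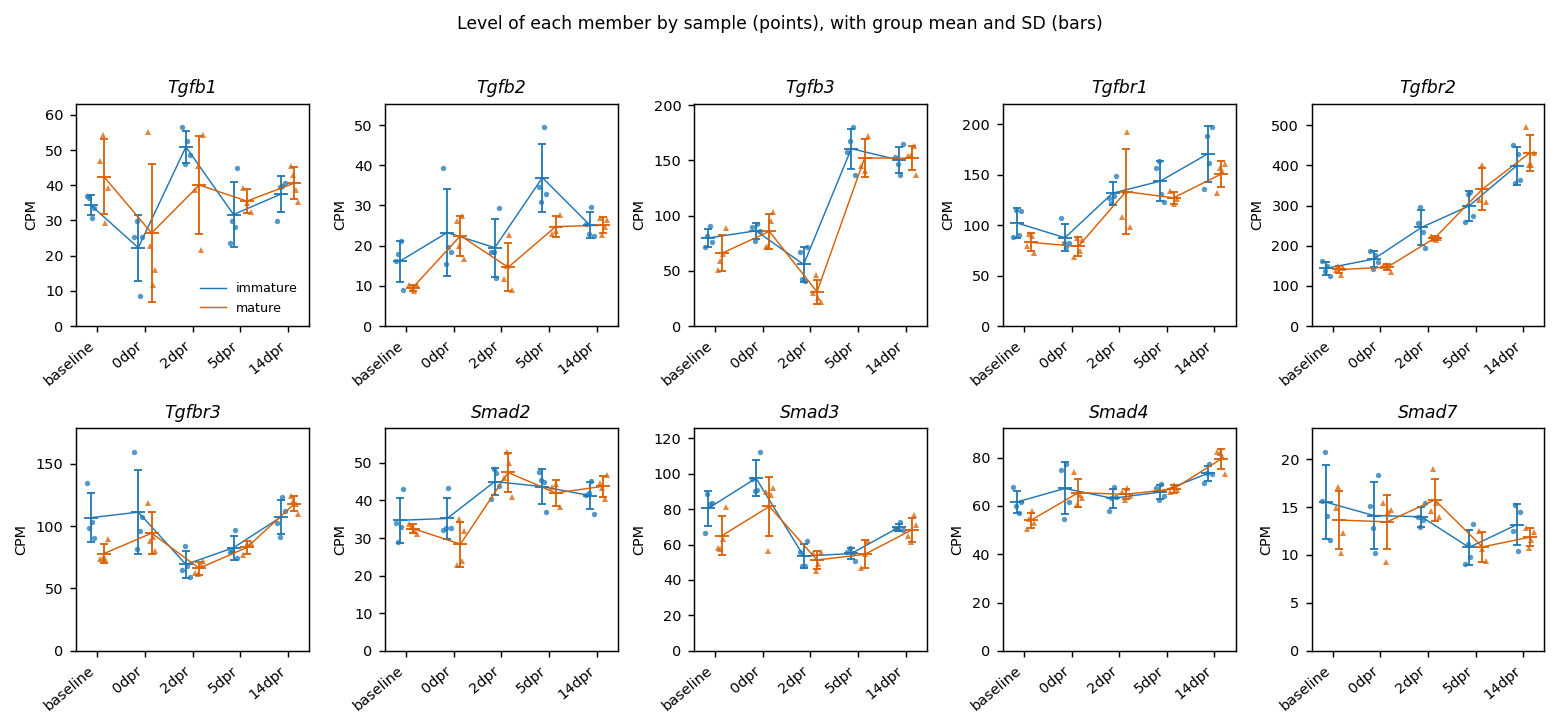
CPM of each of the 10 genes in every sample (y axis from 0, 1 panel a gene, stages along the x axis, immature and mature mice in separate colours, bars for group mean and SD). All samples of Tgfb3 at 5 and 14dpr lie above those of the earlier stages and all samples of Tgfbr2 from 2dpr on lie above those of baseline and 0dpr, whereas those of Smad7 overlap between stages next to each other in the order of the means.

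The start regions of Tgfb1 and Tgfb2 are given here because the order of their stage means differed. Their ratio did not pass a test of 0 against 2dpr at either age (below). The start regions of the signalling receptors Tgfbr1 and Tgfbr2 are given because both rose from 0 to 2dpr. Tgfb3 and Tgfbr3 were not matched to an entry. The regions are the 250 bases before the gene start in RefSeq's promoter table (GRCm38.p6), 5′ to 3′ on the gene's strand. Entries were taken for 5 of the 10 genes, those shown and Smad3, whereas Smad2, Smad4 and Smad7 were not looked up. Capitals mark the TATA box (here the letters TATAAA), the E-box (spelled CACGTG) or the GC box (spelled GGGCGG), searched on both strands, and the matches shown do not overlap; an AP-1 site with the letters TGANTCA and a cAMP response element (CRE) with the letters TGACGTCA were also looked for. Of 32851 promoters of the same length, 32.7% hold the GC box, 12.4% the TATA box, 6.02% the E-box, 6.75% the AP-1 site and 1.55% the CRE.
Tgfb1 chr7:25686752-25687001, plus strand: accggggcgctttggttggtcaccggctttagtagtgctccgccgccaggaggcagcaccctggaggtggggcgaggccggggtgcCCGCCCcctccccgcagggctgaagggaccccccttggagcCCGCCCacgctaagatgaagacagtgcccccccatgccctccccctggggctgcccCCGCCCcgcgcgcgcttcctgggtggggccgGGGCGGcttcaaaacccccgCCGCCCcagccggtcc
Tgfb2 chr1:186705990-186706239, minus strand: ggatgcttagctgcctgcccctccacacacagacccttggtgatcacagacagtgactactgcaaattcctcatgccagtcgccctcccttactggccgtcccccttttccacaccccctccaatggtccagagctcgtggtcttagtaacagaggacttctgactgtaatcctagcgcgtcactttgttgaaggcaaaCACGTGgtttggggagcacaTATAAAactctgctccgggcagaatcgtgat
Tgfbr1 chr4:47352972-47353221, plus strand: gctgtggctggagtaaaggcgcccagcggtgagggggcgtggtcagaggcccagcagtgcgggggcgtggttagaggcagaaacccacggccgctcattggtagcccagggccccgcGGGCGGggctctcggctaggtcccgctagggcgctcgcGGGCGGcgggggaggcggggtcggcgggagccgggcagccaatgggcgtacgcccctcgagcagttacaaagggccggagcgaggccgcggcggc
Tgfbr2 chr9:116175364-116175613, minus strand: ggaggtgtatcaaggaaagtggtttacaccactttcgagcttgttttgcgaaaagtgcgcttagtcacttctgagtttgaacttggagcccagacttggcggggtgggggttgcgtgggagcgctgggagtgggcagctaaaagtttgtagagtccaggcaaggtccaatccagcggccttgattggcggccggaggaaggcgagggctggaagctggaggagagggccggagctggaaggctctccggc
The Tgfb1 window is 75.2% G or C with 5 GC boxes, and the Tgfb2 window is 53.6% G or C with no GC box, a TATA box at position -31 and an E-box at position -51 from the start. The Tgfbr1 window holds 2 GC boxes in 74.8% G or C, and the Tgfbr2 window (58.4%) holds none of the 5 motifs. A further Tgfbr1 entry away from the gene start (chr4:47385966-47386215, 52.8% G or C) is not shown and holds none of them either. The median over all promoters is 52.4%. A match of letters is a description of the window and says nothing about binding.

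Tgfb1 (ENSMUSG00000002603, chr7:25687002-25705077 in GRCm38, plus strand) encodes the ligand that platelets and macrophages release in wounds. In immature mice, Tgfb1 stood at 37.0, 36.4, 30.6 and 33.6 CPM at baseline, at 25.4, 29.8, 8.65 and 25.2 CPM at 0dpr and at 56.4, 46.2, 52.5 and 48.6 CPM at 2dpr. All 4 samples at 2dpr were above every sample of the other stages, the highest of which was 45.0 CPM at 5dpr. Tgfb1 then read 23.6, 29.9, 28.3 and 45.0 CPM at 5dpr and 29.97, 39.6, 39.7 and 40.8 CPM at 14dpr. Its rise from 0 to 2dpr was 1.20 (log2, SE 0.32, adjusted p = 0.00245), and 0.90 (adjusted p = 0.0203) without immature 0dpr replicate 3. That replicate held 95 Tgfb1 counts, the fewest of any sample, and the highest muscle marker sum of its group (179062 CPM). The fall that followed in the means, -0.68 from 2 to 5dpr, did not pass the test (adjusted p = 0.21), although the samples did not overlap and the fit of only the samples compared called it (adjusted p = 0.0209).

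In mature mice, Tgfb1 read 46.8, 54.3, 29.4 and 39.2 CPM at baseline, 55.2, 22.8, 11.7 and 15.97 CPM at 0dpr and 38.7, 45.4, 21.8 and 54.4 CPM at 2dpr. The 0 and 2dpr samples overlapped, since mature 0dpr replicate 1 was the highest of all 8. The difference of 0.62 (log2, SE 0.32) did not pass edgeR's quasi-likelihood test (adjusted p = 0.11). Without that replicate it was 1.23 (adjusted p = 0.000672), and without mature 2dpr replicate 3 it was 0.82 (adjusted p = 0.0332). At 5dpr the values were 39.2, 35.1 and 32.3 CPM and at 14dpr 45.4, 43.0, 38.8 and 35.3 CPM, so that every neighbouring pair in the order of the stages overlapped. At 0dpr the mean differed from baseline by -0.69 on the log2 scale (adjusted p = 0.116), and -1.32 (adjusted p = 0.00213) without mature 0dpr replicate 1. The change from 0 to 2dpr was not shown to differ between ages (0.59, SE 0.45, adjusted p = 0.627 for the interaction). The 7 platelet and megakaryocyte markers summed to between 117 and 812 CPM at 0dpr and to between 332 and 617 CPM at 2dpr over both ages. Taken singly, 5 of 7 fell and 1 rose over this step in immature mice, and 6 fell and 1 rose in mature mice. Of all genes, 22.2% and 24.9% were called lower and 21.8% and 22.7% higher. The part of these markers in the Tgfb1 values was not tested.

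Tgfb2 (ENSMUSG00000039239, chr1:186622792-186705989, minus strand) encodes the ligand that binds its receptors best when betaglycan is present. In mature mice, Tgfb2 read 10.3, 9.30, 8.68 and 10.1 CPM at baseline and 26.0, 19.8, 27.3 and 16.8 CPM at 0dpr, with no overlap. It was the larger of the 2 increases among the members at 0dpr in mature mice, at 1.23 (log2, SE 0.28, adjusted p = 0.00148). Of all genes, 11.9% were called higher, 10.6% lower and 22.5% in either direction. Over the same step 8 of 8 skeletal muscle markers were called higher (median 1.24) and 8 of 8 macrophage markers lower (median -0.75). The part of these shifts in the Tgfb2 values was not tested. Tgfb2 then stood at 11.8, 15.0, 22.8 and 8.93 CPM at 2dpr, at 23.0, 23.6 and 27.7 CPM at 5dpr and at 26.9, 22.6, 24.6 and 26.3 CPM at 14dpr. The 2dpr mean differed from 0dpr by -0.63 (SE 0.27, adjusted p = 0.0516), with mature 2dpr replicate 3 the highest of its group; without it the difference was -0.93 (adjusted p = 0.00548). The difference was called in 4 of 6 other settings (lowest adjusted p = 0.0272). The step to 5dpr was 0.77 (adjusted p = 0.0639), and 1.06 (adjusted p = 0.0104) without that replicate. At 14dpr Tgfb2 was above baseline by 1.39 (SE 0.28, adjusted p = 0.000135), and all 4 samples were above all baseline samples.

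In immature mice, Tgfb2 read 16.2, 18.0, 21.1 and 8.996 CPM at baseline, 39.3, 15.5, 19.7 and 18.5 CPM at 0dpr and 18.3, 18.3, 11.98 and 29.4 CPM at 2dpr. These 3 stages overlapped, and the high 0dpr value came from replicate 1. At 5dpr it was 34.6, 30.9, 49.4 and 32.8 CPM, above all 2dpr samples, a rise of 0.93 (log2, SE 0.27, adjusted p = 0.0243) that was called in 4 of the 8 fits that left out 1 sample. The 14dpr values of 25.3, 23.0, 29.5 and 22.4 CPM were all above baseline, but the difference of 0.64 did not pass the test (adjusted p = 0.0667). No member passed the test at 0dpr against baseline in immature mice, and 1 (Smad3) had an unadjusted p under 0.05, where 10.6% of all genes were called and 25.9% had such a p. DESeq2 called none there either.

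Tgfb3 (ENSMUSG00000021253, chr12:86056745-86079041, minus strand) encodes the ligand known from palate fusion and from cartilage. Its samples fell into levels by stage. In immature mice, Tgfb3 read 71.3, 81.3, 90.7 and 75.7 CPM at baseline and 89.6, 76.7, 92.8 and 85.8 CPM at 0dpr, then 67.1, 42.9, 41.1 and 71.9 CPM at 2dpr. It stood at 158, 168, 179.7 and 137 CPM at 5dpr and at 153, 147, 137 and 165 CPM at 14dpr, where all 8 samples were above the 92.8 CPM that was the maximum of the earlier stages. The 2dpr samples were all below the 0dpr samples (-0.63, SE 0.18, adjusted p = 0.00556). The rise from 2 to 5dpr was 1.53 (SE 0.19, adjusted p = 1e-06), and 14dpr lay 0.91 above baseline (SE 0.18, adjusted p = 0.000173).

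In mature mice, Tgfb3 read 50.8, 58.6, 65.1 and 88.7 CPM at baseline, 71.8, 72.7, 95.1 and 103 CPM at 0dpr and 30.1, 46.7, 25.5 and 21.8 CPM at 2dpr. The 2dpr samples were below every sample of every other mature stage. Tgfb3 fell by 1.47 from 0 to 2dpr (log2, SE 0.19, adjusted p = 4.9e-08) and rose by 2.30 from 2 to 5dpr (SE 0.20, adjusted p = 3.78e-10), the largest change of any member between neighbouring stages. It then read 145, 139.9 and 172 CPM at 5dpr and 154, 155, 163 and 136 CPM at 14dpr, 1.21 above baseline (SE 0.19, adjusted p = 3.07e-06).

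Tgfb3 was also the member that differed between the ages. At 2dpr it was higher in immature mice by 0.85 (log2, SE 0.19, adjusted p = 0.0232), the only member of 10 called in any of the 5 comparisons of age, where 0.627% of all genes were called at that stage and 0.457% were called higher. The samples overlapped, as 46.7 CPM in mature replicate 2 was above the 42.9 and 41.1 CPM of immature replicates 2 and 3. The call did not hold in a fit of only the samples compared (adjusted p = 0.656), or without immature 2dpr replicate 1 or 4 or mature 2dpr replicate 1, 3 or 4. Without mature 2dpr replicate 3, which stood apart, the difference was 0.77 (adjusted p = 0.0746). The change from 0 to 2dpr was not shown to differ between ages (0.84, SE 0.26, adjusted p = 0.232). Over the same samples, the stroma marker sum was 9888 to 11131 CPM in immature and 5477 to 6807 CPM in mature mice at 2dpr, and its part in the difference was not tested.

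Among the receptors, Tgfbr2 (ENSMUSG00000032440, chr9:116084293-116175360, minus strand), the type II receptor that binds ligand first, ended well above baseline at both ages, with the step from 0 to 2dpr called at both. In immature mice, Tgfbr2 read 163, 137, 149.6 and 125 CPM at baseline, 187, 143, 176 and 160.3 CPM at 0dpr and 256, 297, 234 and 194 CPM at 2dpr. It went on to 259.5, 328, 335 and 273 CPM at 5dpr and 451, 356, 427 and 363 CPM at 14dpr, where every sample was above every sample of the earlier stages. The step from 0 to 2dpr was 0.56 (log2, SE 0.12, adjusted p = 0.000324), and 14dpr was 1.47 above baseline (SE 0.12, adjusted p = 3.43e-11). The steps from baseline to 0dpr (0.22, adjusted p = 0.27) and from 2 to 5dpr (0.28, adjusted p = 0.166) did not pass. The last step, 0.42 from 5 to 14dpr, lay at an adjusted p of 0.0504 and was called in 4 of 6 other settings.

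In mature mice, Tgfbr2 read 141, 150.2, 128 and 145 CPM at baseline, 149, 153, 148 and 136 CPM at 0dpr and 225, 218, 214 and 219 CPM at 2dpr. Baseline and 0dpr overlapped, and the 2dpr samples, with an SD of 4.46 CPM, were all higher. The values of 313, 402 and 308 CPM at 5dpr were higher again, with 494, 400.4, 399.8 and 431 CPM at 14dpr. Tgfbr2 rose by 0.58 from 0 to 2dpr (SE 0.12, adjusted p = 0.000165) and by 0.64 from 2 to 5dpr (SE 0.13, adjusted p = 0.000763), and ended 1.61 above baseline (SE 0.12, adjusted p = 2.63e-12). The first step, 0.06 from baseline to 0dpr, and the last, 0.34 from 5 to 14dpr, did not pass (adjusted p = 0.793 and 0.149). Of the variance of its log2 CPM over the 39 samples, 94.8% lay between the 10 groups, the highest share of the members, beside a median of 55.3% over all genes.

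Tgfbr1 (ENSMUSG00000007613, chr4:47353222-47414931, plus strand), the type I receptor kinase, had an early and a late level. In immature mice, Tgfbr1 read 88.5, 116, 90.8 and 114 CPM at baseline and 107, 82.1, 78.9 and 82.2 CPM at 0dpr, against 127, 122, 129 and 148 CPM at 2dpr. It stayed at 157, 164, 131 and 123 CPM at 5dpr and 136, 189, 162 and 197 CPM at 14dpr. No sample from 2dpr onwards was below any earlier sample. The rise from 0 to 2dpr was 0.59 (log2, SE 0.15, adjusted p = 0.00203), and 14dpr lay 0.74 above baseline (SE 0.15, adjusted p = 0.000255).

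In mature mice, Tgfbr1 read 79.6, 91.0, 89.4 and 72.1 CPM at baseline, 68.1, 87.6, 74.6 and 85.8 CPM at 0dpr and 108, 134, 192 and 98.4 CPM at 2dpr. It was at 134, 122 and 126 CPM at 5dpr and at 132, 156, 154 and 161 CPM at 14dpr, and again no sample from 2dpr onwards was below an earlier one. The rise from 0 to 2dpr was 0.75 (SE 0.15, adjusted p = 0.000117) and 0.52 (adjusted p = 0.00214) without mature 2dpr replicate 3, which held the 192 CPM. At 14dpr Tgfbr1 was 0.86 above baseline (SE 0.15, adjusted p = 3.38e-05).

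Tgfbr3 (ENSMUSG00000029287, chr5:107106570-107289629, minus strand), the co-receptor betaglycan, went the other way at 2dpr. In immature mice, Tgfbr3 read 135, 98.1, 103 and 90.7 CPM at baseline, 159, 81.7, 96.1 and 107 CPM at 0dpr and 65.0, 84.1, 68.3 and 59.5 CPM at 2dpr. It returned through 78.8, 80.3, 96.7 and 74.7 CPM at 5dpr to 103, 91.4, 123 and 112 CPM at 14dpr, which overlapped with baseline. Tgfbr3 fell by 0.68 from 0 to 2dpr (log2, SE 0.15, adjusted p = 0.000392) and by 0.44 (adjusted p = 0.0099) without immature 0dpr replicate 1, which held the 159 CPM. The 84.1 CPM of 2dpr replicate 2 overlapped with the 0dpr samples.

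In mature mice, Tgfbr3 read 73.6, 74.7, 73.7 and 89.6 CPM at baseline, 118, 87.8, 91.1 and 79.9 CPM at 0dpr and 62.2, 61.6, 68.4 and 72.3 CPM at 2dpr. All 2dpr samples were below all samples of the other mature stages. It fell by 0.51 from 0 to 2dpr (SE 0.15, adjusted p = 0.00565). Tgfbr3 then read 76.5, 85.2 and 86.7 CPM at 5dpr and 124, 120.3, 118 and 109 CPM at 14dpr, 0.60 above baseline (SE 0.15, adjusted p = 0.00207). In immature mice the same difference was 0.01 (adjusted p = 0.975), and the ages' changes from baseline to 14dpr were not shown to differ (-0.59, SE 0.21, adjusted p = 0.452 for the interaction). At baseline all 4 immature samples were above all 4 mature samples, by 0.45 on the log2 scale (adjusted p = 0.19).

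The receptor-activated Smads moved apart at 2dpr. Smad2 (ENSMUSG00000024563, chr18:76241580-76310963, plus strand) and Smad3 (ENSMUSG00000032402, chr9:63646767-63757994, minus strand) are phosphorylated by the same type I receptor. In mature mice, Smad2 read 33.8, 33.2, 32.0 and 31.1 CPM at baseline, 22.7, 35.1, 23.9 and 31.8 CPM at 0dpr and 46.1, 52.8, 49.8 and 41.0 CPM at 2dpr. All samples at 2dpr were above the earlier ones, and the rise from 0dpr was 0.74 (log2, SE 0.13, adjusted p = 1.41e-05). The values at 5dpr (43.5, 44.3 and 38.2 CPM) and at 14dpr (44.7, 43.2, 40.3 and 46.8 CPM) stayed above every baseline sample, with 14dpr 0.43 above baseline (SE 0.13, adjusted p = 0.0095).

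In immature mice, Smad2 read 33.9, 29.0, 32.9 and 43.1 CPM at baseline, 32.3, 32.7, 43.2 and 32.7 CPM at 0dpr and 40.5, 48.3, 47.4 and 43.9 CPM at 2dpr. The 43.2 CPM of 0dpr replicate 3 overlapped with 2dpr. The rise of 0.35 (SE 0.13, adjusted p = 0.0267) passed in 2 of 6 other settings and in 4 of 8 fits that left out 1 sample. It was not shown to differ from the rise in mature mice (-0.39, SE 0.18, adjusted p = 0.428). Smad2 stood at 47.6, 45.4, 44.8 and 36.9 CPM at 5dpr and at 41.4, 42.1, 45.2 and 36.4 CPM at 14dpr, the latter 0.25 above baseline (adjusted p = 0.148).

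In immature mice, Smad3 read 66.3, 88.8, 83.2 and 83.7 CPM at baseline, 97.0, 90.2, 90.6 and 112 CPM at 0dpr and 55.7, 48.2, 48.1 and 61.8 CPM at 2dpr. The 3 stages did not overlap, with 0dpr at the top and 2dpr at the bottom. Smad3 fell by 0.87 from 0 to 2dpr (log2, SE 0.13, adjusted p = 1.69e-06). It was at 55.7, 58.0, 55.2 and 51.0 CPM at 5dpr and at 68.8, 69.0, 72.8 and 68.3 CPM at 14dpr, a step of 0.34 that did not pass the test (adjusted p = 0.173) although the samples did not overlap.

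In mature mice, Smad3 read 58.1, 57.4, 63.2 and 81.1 CPM at baseline, 89.6, 56.6, 88.1 and 91.8 CPM at 0dpr and 55.0, 45.0, 49.3 and 55.9 CPM at 2dpr. It fell by 0.67 from 0 to 2dpr (SE 0.13, adjusted p = 7.62e-05), and the 56.6 CPM of 0dpr replicate 2 was still above all 2dpr samples. At 5dpr Smad3 read 46.5, 54.7 and 62.2 CPM and at 14dpr 64.6, 61.5, 76.8 and 70.8 CPM. The 14dpr samples overlapped with baseline at both ages, with differences of -0.21 in immature and 0.08 in mature mice (log2, adjusted p = 0.249 and 0.717).

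Smad4 (ENSMUSG00000024515, chr18:73639009-73703780, minus strand), the partner shared by TGF-beta and BMP signals, varied within narrow limits. Between 0 and 2dpr it differed by -0.09 in immature and -0.01 in mature mice (log2, adjusted p = 0.446 and 0.913), with standard errors of 0.09 each. In mature mice, Smad4 read 50.5, 54.7, 57.8 and 53.0 CPM at baseline, below the 73.9, 60.5, 64.4 and 63.1 CPM of 0dpr and below the 82.2, 81.7, 80.6 and 73.1 CPM of 14dpr. It rose by 0.28 at 0dpr (SE 0.09, adjusted p = 0.0269, called in 3 of 8 fits that left out 1 sample) and was 0.56 above baseline at 14dpr (SE 0.09, adjusted p = 9.94e-06). At 2dpr it read 65.6, 62.4, 67.3 and 63.9 CPM and at 5dpr 65.6, 68.8 and 66.6 CPM.

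In immature mice, Smad4 read 67.9, 60.0, 57.2 and 61.5 CPM at baseline and 69.6, 73.5, 77.4 and 73.2 CPM at 14dpr, with no overlap. The difference of 0.25 (SE 0.09, adjusted p = 0.0331) was called in 2 of 8 fits that left out 1 sample and did not hold under RLE scaling, or once samples were blocked by replicate number (adjusted p = 0.0784). The other 3 stages lay between 54.7 and 77.3 CPM. The ages' changes from baseline to 14dpr were not shown to differ (-0.30, SE 0.13, adjusted p = 0.561).

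Smad7 (ENSMUSG00000025880, chr18:75367529-75395935, plus strand), the inhibitory Smad, passed no test of a stage or an age. It ranged from 9.04 to 20.7 CPM over the 39 samples, and stages next to each other in the order of its means overlapped throughout. Group means lay between 10.8 CPM at 5dpr at both ages and 15.7 CPM in mature mice at 2dpr. The drop in the mature mean from 2 to 5dpr, -0.54 (log2, SE 0.21), came with no overlap of the samples and an adjusted p of 0.0805. Smad7 had the lowest share of variance between groups of the members (36.4%), and 57 counts in its lowest sample.

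Ratios within a sample are nearly free of the scaling of the library, and 4 of them were compared between 0 and 2dpr at each age. The log2 ratio of Tgfb1 to Tgfb3 was -1.81, -1.36, -3.39 and -1.76 in the immature 0dpr samples and -0.25, 0.11, 0.35 and -0.56 at 2dpr. In mature mice it was -0.38, -1.66, -3.00 and -2.68 at 0dpr and 0.36, -0.04, -0.23 and 1.31 at 2dpr. All samples at 2dpr were above all samples at 0dpr at both ages, by 1.99 and 2.28 in the means (exact two-sided permutation test, p = 0.0286 each, the smallest that 4 against 4 samples allow, adjusted p = 0.0381 over 8 tests). In mature mice the adjusted p was 0.0571 to 0.0653 without any 1 of the 2dpr samples, so that the difference did not pass there. The remaining 2dpr samples were still all above the 0dpr samples. With 3 against 4 samples the exact test takes few values, so these fits cannot show whether the difference rests on 1 sample. At 5dpr the mean was -2.37 ± 0.52 (SD, n = 4) in immature and -2.09 ± 0.28 (SD, n = 3) in mature mice. These means were near those of 0dpr (-2.08 and -1.93) and below those of baseline (-1.21 and -0.64).

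The Tgfbr2 to Tgfbr3 ratio also shifted at 2dpr. Its geometric mean was 1.54 in immature and 1.57 in mature mice at 0dpr and 3.53 and 3.31 at 2dpr, a log2 difference of 1.19 and 1.08 with no overlap (exact permutation p = 0.0286 each, adjusted p = 0.0381). It remained at 3.72 and 3.64 at 14dpr, from 1.36 and 1.81 at baseline. The Smad7 to Smad3 log2 ratio rose by 0.88 and 0.89, with no overlap (exact permutation p = 0.0286 each, adjusted p = 0.0381), while Smad7 itself did not pass a test. The Tgfb1 to Tgfb2 ratio differed by 1.55 and 1.45 with overlapping samples, and did not pass (exact permutation p = 0.0571 and 0.0857, adjusted p = 0.0653 and 0.0857).

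**Figure D4:**
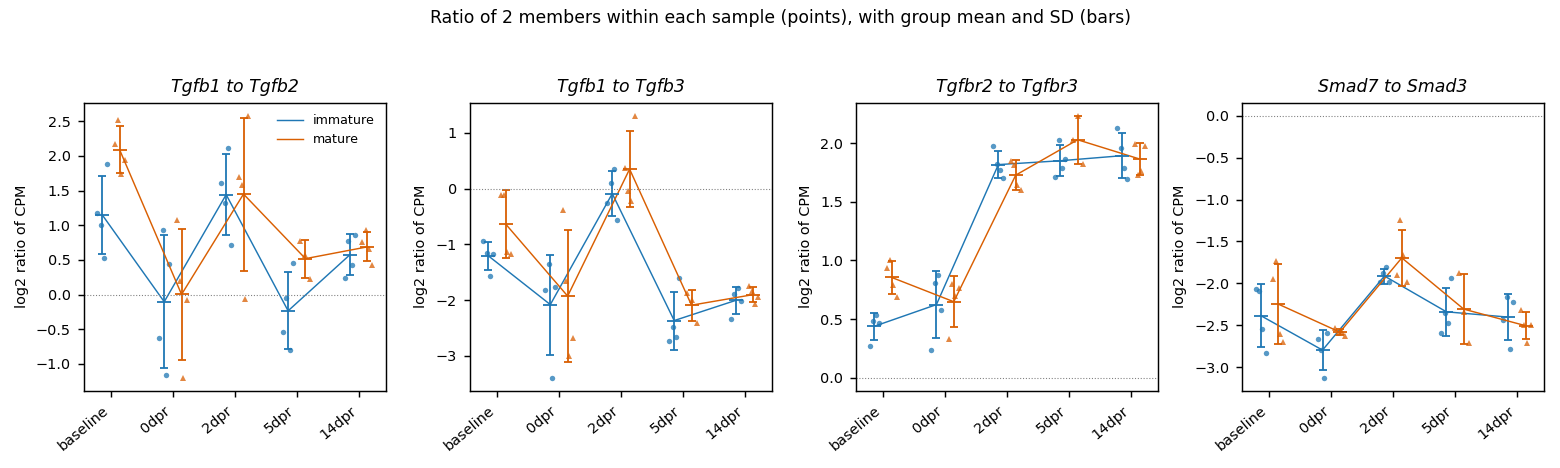
Log2 ratios of Tgfb1 to Tgfb2, Tgfb1 to Tgfb3, Tgfbr2 to Tgfbr3 and Smad7 to Smad3 (y axis) in each of the 39 samples by stage (x axis), with bars for group mean and SD and immature and mature mice in separate colours. The Tgfb1 to Tgfb3 ratio peaks at 2dpr and returns by 5dpr, whereas the Tgfbr2 to Tgfbr3 ratio steps up at 2dpr and stays there.

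Per length of exon (CPM per kb over the union of exons in GENCODE vM21), the members' order changed with the stages. At baseline Tgfb3 was the highest, at 23.6 CPM per kb in immature and 19.5 in mature mice, ahead of Tgfbr2 at 17.6 and 17.2. The samples of this pair were apart in immature and overlapped in mature mice. At 2dpr Tgfbr2 led with 29.975 and 26.8 CPM per kb, apart from Tgfbr1 in immature and overlapping with it in mature mice. Tgfb3 ranked 4 there in immature (16.5) and 6 in mature mice (9.17). At 5dpr Tgfb3 and Tgfbr2 overlapped at the top, with 47.5 and 36.5 CPM per kb in immature and 45.0 and 41.6 in mature mice. At 14dpr the first place was held by Tgfbr2 (48.7 and 52.7), with Tgfb3 next (44.4 and 44.9), overlapping in immature and apart in mature mice. Among the ligands, the mean of Tgfb3 was above that of Tgfb1 per kb in each of the 10 groups, and Tgfb2 or Smad7 was the lowest of the 10 genes in every group, at 1.66 CPM per kb for Tgfb2 in mature baseline.

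Few of these genes differed between the ages. At baseline no member passed edgeR's test of age, 4 (Tgfb2, Tgfbr3, Smad3, Smad4) had an unadjusted p under 0.05, all higher in immature mice with log2 differences of 0.19 to 0.74, and 0.585% of all genes were called (11.7% had such a p). At 0dpr there were 0 calls and 1 unadjusted p under 0.05 (0.726% of all genes called, 10.7% with such a p), at 5dpr 0 calls and 1 (0% of all genes called by edgeR, 1081 genes or 5.1% at an unadjusted p under 0.05, 33 genes with DESeq2), and at 14dpr 0 calls and 0 (0.00943% called, 4.57% at an unadjusted p under 0.05). DESeq2 called no member at these 4 stages either. At 14dpr the members' log2 differences between the ages lay between -0.14 and 0.18. The change from 0 to 2dpr and that from baseline to 14dpr differed between the ages for 0 of 10 members, with 2 unadjusted p-values under 0.05 each and 0 calls by DESeq2 (0.0613% and 0.0472% of all genes called, 11.2% and 7.98% with such a p). A joint test of age by stage called 0 of 10 members, with 1 (Tgfb3) at an unadjusted p under 0.05, where 0.184% of all genes were called and 10.1% had such a p.

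The rest of the pathway was described by 4 lists of genes. Of 14 genes for ligand storage and activation, 9 rose and 2 fell in immature mice from 0 to 2dpr, and 9 rose and 3 fell in mature mice, with medians of 0.86 and 1.17 (log2) beside -0.04 and -0.05 over all genes. Over this step 21.8% of all genes were called higher and 22.2% lower in the immature comparison, against 22.7% and 24.9% in the mature one. Nrros, which tethers latent TGF-beta1 on macrophages and microglia, rose from 38.5 ± 12.7 to 173 ± 12.3 CPM in immature mice (SD, n = 4) and from 40.1 ± 12.7 to 181 ± 45.7 CPM in mature mice. Both changes were 2.17 (adjusted p = 8.85e-11 and 5.17e-11). Lrrc32, the tether on regulatory T cells and platelets, rose by 1.46 and 1.17 (adjusted p = 1.34e-05 and 0.000209). Itgav, the integrin chain that frees the latent ligand, rose by 1.11 and 1.49 (adjusted p = 5.43e-07 and 1.59e-09), and the matrix scaffold Fbn1 rose by 0.74 and 1.36 (adjusted p = 0.00602 and 4e-06). Ltbp4, a latent TGF-beta binding protein, fell from 83.1 ± 25.5 to 22.2 ± 7.40 CPM and from 71.6 ± 24.96 to 14.2 ± 1.11 CPM (-1.91 and -2.33, adjusted p = 4.57e-07 and 9.85e-09). The macrophage marker sum was higher at 2dpr in the same samples (above), and its part in the Nrros and Itgav values was not tested.

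The response genes that passed from 0 to 2dpr were all higher. Of 9, 4 rose and 0 fell at each age from 0 to 2dpr, with medians of 0.47 and 0.56, and 7 of 9 in mature and 4 of 9 in immature mice were above baseline at 14dpr. The share of all genes called in either direction was 44% in immature and 47.6% in mature mice at 2dpr, so that 4 of 9 called is near the background. By direction, 21.8% and 22.7% of all genes were called higher and 22.2% and 24.9% lower at 2dpr. At 14dpr 16.4% and 17.1% were called higher. In the step from 2 to 5dpr, calls among the 9 were 2 higher and 1 lower (immature), and 4 higher and 1 lower (mature). The shares of all genes were 4.37% higher and 3.68% lower (immature), and 8.16% and 6.38% (mature). For the step from 5 to 14dpr, the calls were 1 higher and 1 lower (immature), and 0 higher and 2 lower (mature). There the shares of all genes were 1.73% and 1.45% (immature), and 1.95% and 2.23% (mature). Tgfbi, a matrix protein named for its induction by TGF-beta, went from 157 ± 10.8 to 879 ± 189 CPM in immature and from 128 ± 10.98 to 1146 ± 189 CPM in mature mice (SD, n = 4), changes of 2.49 and 3.16 (adjusted p = 6.81e-15 and 3.18e-17). Snai1, a transcription factor of mesenchymal cells, rose by 1.80 and 1.47 (adjusted p = 0.00974 and 0.0337), with 1 mature 2dpr sample at 0 CPM. Klf10, an early TGF-beta target, rose by 0.62 and 0.78 (adjusted p = 0.00355 and 0.000303). Acta2, the smooth muscle actin of myofibroblasts, rose by 0.81 in immature mice (adjusted p = 0.00966) and was not called in mature mice. The change from 0 to 2dpr differed between the ages for 0 of the 9 response genes, beside 0.0613% of all genes. Postn, the matrix protein periostin, rose by 2.14 in mature mice (adjusted p = 7.32e-06), from 214 ± 60.6 to 945 ± 559 CPM with overlapping samples, and differed by 0.47 in immature mice (adjusted p = 0.29). It was 1.94 and 2.24 higher in immature than in mature mice at baseline and 0dpr (log2, adjusted p = 0.00481 and 0.000634).

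Inhibitors split between the directions. Of 11 inhibitors and feedback genes, 3 rose and 4 fell from 0 to 2dpr at each age, with medians of 0.07 and 0.24, where 21.8% and 22.7% of all genes rose and 22.2% and 24.9% fell. The nuclear repressors of Smad activity Tgif1 (1.58 and 2.59, adjusted p = 1.47e-08 and 4.2e-13) and Skil (0.68 and 1.33, adjusted p = 0.000451 and 8e-09) rose. Ppm1a, a phosphatase of Smad2 and Smad3, fell by 0.97 and 1.05 (adjusted p = 3.93e-08 and 5.7e-09). The ligand-binding proteoglycan Dcn fell by 1.28 and 0.92 (adjusted p = 1.01e-07 and 1.78e-05). By 14dpr 7 of 11 in immature and 8 of 11 in mature mice were above baseline, where 16.4% and 17.1% of all genes were.

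The 9 other receptors and co-receptors also split, with 2 higher and 3 lower in immature and 3 higher and 2 lower in mature mice at 2dpr, and medians of 0.15 and 0.19. The 5 of 9 called at each age stand near the 44% and 47.6% of all genes called. Acvrl1, a type I receptor of endothelium, rose by 0.74 and 0.71 (adjusted p = 0.000393 and 0.000537). The co-receptor Cd109, which lowers TGF-beta signalling, rose by 1.20 and 1.35 (adjusted p = 0.000221 and 4.84e-05). Acvr1c, an activin and nodal receptor known from fat, fell by 2.37 and 2.83 (adjusted p = 5.62e-05 and 4.82e-06), in samples whose 5 adipocyte markers summed to between 1262 and 2262 CPM at 0dpr and to between 525 and 798 CPM at 2dpr. The part of that shift in the Acvr1c value was not tested. The activin type II receptor Acvr2a fell by 0.84 in immature mice (adjusted p = 0.000342). Acvr2b fell by 2.40 in mature mice (adjusted p = 4.1e-05), from 8.05 ± 3.20 CPM to 1.45 ± 1.20 CPM with 1 sample at 0. The values of Acvr2a and Acvr2b at the other age are not given here. The change from 0 to 2dpr differed between the ages for 0 of the 9 genes, beside 0.0613% of all genes.

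**Figure D5:**
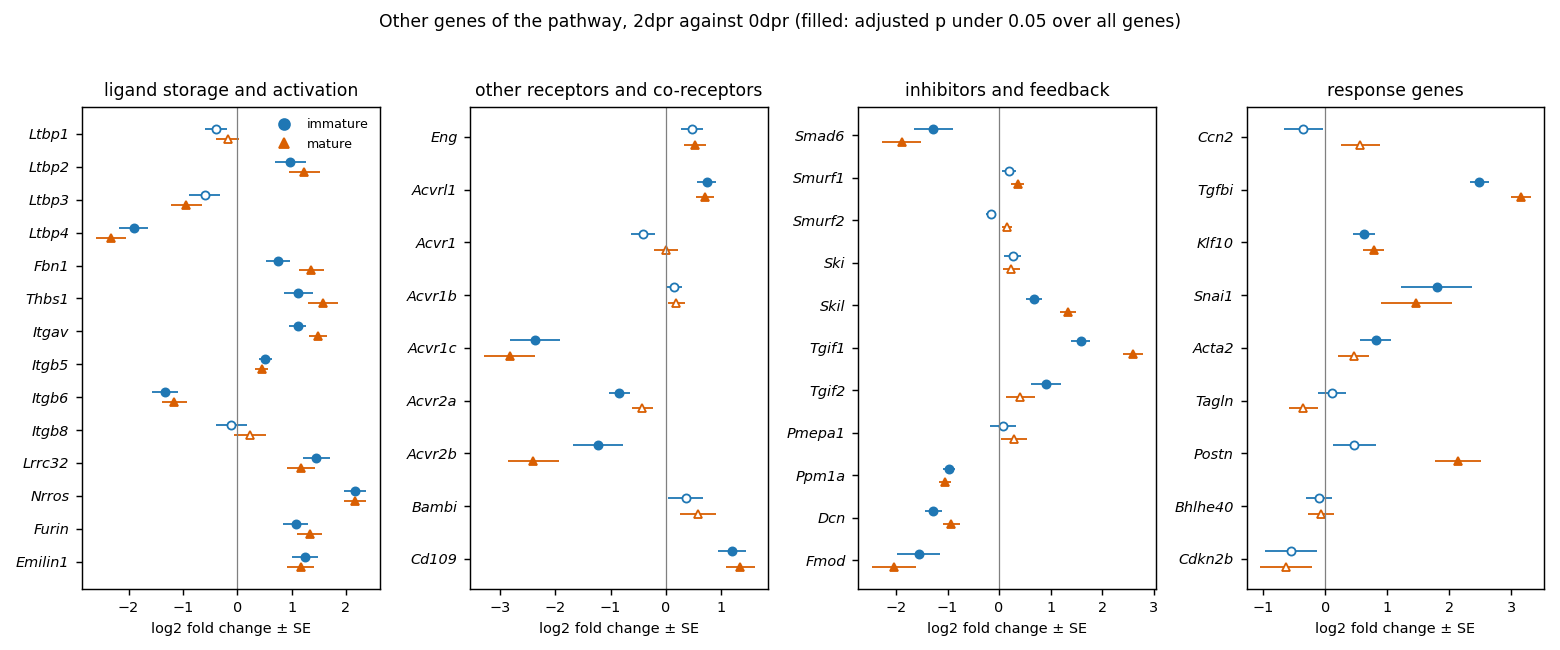
Log2 fold changes from 0 to 2dpr (x axis, bars are standard errors) of the genes of the 4 pathway lists, immature and mature marked apart, filled where the threshold was passed. Response genes that passed lie right of 0 at both ages, and the lists of inhibitors and of other receptors spread to both sides.

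The genes whose log2 CPM followed a member most closely over the 39 samples were taken from 14107 genes with a mean of at least 1 CPM, as a description. The samples share stage, library scaling and cell makeup, which alone bring many genes together. Tgfbr2 was followed by Fstl1, Pltp and Igfbp7 (Pearson r = 0.958, 0.954 and 0.951), and Tgfb3 by Itm2a, Islr and Pamr1 (0.936, 0.924 and 0.906). For Tgfbr1 they were Slc36a4, Ext1 and Man1a2 (0.927, 0.907 and 0.89), and for Smad2 Katnbl1, Washc4 and Stard3nl (0.922, 0.912 and 0.889). Tgfb1 was closest to Sh2b3, Csk and Tle3 (0.869, 0.864 and 0.846), Smad3 to Lynx1, Amotl1 and Prss55 (0.863, 0.862 and 0.856), and Tgfb2 to Map1a, Yes1 and Nedd4 (0.845, 0.818 and 0.815). Tgfbr3 had Htra3, Ltbp4 and Prelp (0.842, 0.835 and 0.831), so that a storage gene of the pathway was among its nearest. Smad4 had Dusp16, Ets2 and Heg1 (0.819, 0.818 and 0.814), and Smad7 had Mcoln1, Epha2 and Fam83g at lower values (0.606, 0.572 and 0.561). Between members, r was 0.761 for Tgfbr1 and Tgfbr2, 0.712 for Tgfbr1 and Smad2, 0.647 for Tgfb2 and Tgfb3, and -0.637 for Smad2 and Smad3.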

How the data were processed

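Bulk RNAseq libraries (TruSeq stranded, NovaSeq, 150 bp paired-end) were sequenced in separate runs, and the run of each sample is not given in the sources used here. Per the labels and methods, reads were aligned with STAR 2.5.2a to GRCm38. The authors deposited raw counts per gene (48733 genes), the same counts after a filter on low values (21204 genes, rule not given in the sources used here), and a table of CPM. The deposited CPM, a normalized signal, equalled CPM computed with edgeR's TMM factors to a relative difference of 4.99e-15. The authors also list DESeq2, edgeR and limma. The 39 samples with a column were used of 40 in the labels, and total counts had a median of 9087417. The filtered table held 1 row that is no mouse gene, kept in library sizes at 0.00066% to 0.00223% of a library. Exons of Tgfb2, Tgfb3 and Tgfbr3 overlap predicted genes, and whether counting used strand is not given in the sources used here, so that their reads may be shared.

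The filtered counts were tested with edgeR 4.0.16 in R 4.3.3 (TMM, quasi-likelihood, 1 coefficient per group over all 39 samples, no replicate block, Benjamini-Hochberg over 21204 genes, threshold 0.05). Standard errors are the log2 fold change over the root of F, log2 CPM used a prior count of 2, and 4 ratios were compared with exact two-sided permutation tests adjusted over 8. The scripts were tested on simulated data. Alternatives were RLE factors, DESeq2 1.42.0, filterByExpr, every gene with 1 count or more, fits restricted to the groups in question, blocking by replicate number, and leaving out each sample. The members and lists were chosen with earlier results of these data known. Named genes were all 10 members and up to 4 called genes per pathway list and age with the smallest adjusted p at 2dpr against 0dpr. Their values at the other age are given except for Acta2, Acvr2a and Acvr2b. The 3 genes most like each member were also named (Pearson r, mean of at least 1 CPM, Gm and Rik names left out). In the list of response genes, 1 gene is not reported here.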

Additional observations from a re-analysis of the deposited data

Results flagged for a closer look

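Within groups of 4 samples, 7 values lay far from the rest by Dixon's criterion, of 126 groups tested for genes and ratios and 90 for members. Chance gives about 1 in 20. Tgfb1 was lowest in immature 14dpr replicate 1 (29.97 CPM, nearest 39.6 CPM). Tgfbr1 was highest in immature 0dpr replicate 1 (107 CPM, nearest 82.2 CPM), which is one of the libraries that stood apart. Tgfbr3 was highest in mature baseline replicate 4 (89.6 CPM, nearest 74.7 CPM). Smad2 was highest in immature 0dpr replicate 3 (43.2 CPM, nearest 32.7 CPM). Smad3 was highest in immature 14dpr replicate 3 (72.8 CPM, nearest 69.0 CPM) and lowest in mature 0dpr replicate 2 (56.6 CPM, nearest 88.1 CPM). The last sample was also lowest for Smad7 (9.23 CPM, nearest 14.5 CPM).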

How the results depend on the processing

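Counts of members called were 0 from 5 to 14dpr in immature mice, against 1 with RLE factors, 1 with filterByExpr, 1 with DESeq2 and 4 with only the samples compared. In mature mice the same step gave 0, against 1 with filterByExpr, 2 with DESeq2 and 1 with only the samples compared. From baseline to 0dpr in mature mice the count was 2, against 1 with all genes of at least 1 count, 1 with only the samples compared, and 3 with filterByExpr, with DESeq2 and with the block, which gained Smad3 (adjusted p = 0.0417, 0.0404 and 0.0347). From 2 to 5dpr in immature mice it was 2, against 3 with only the samples compared. For age at 2dpr it was 1, against 0 with only the samples compared. Leaving out 1 sample gave 1 to 2 calls from 2 to 5dpr and 0 to 1 from 5 to 14dpr in immature mice, 1 to 4 from baseline to 0dpr in mature mice, and 0 to 1 for age at 2dpr. It moved the Tgfb1 to Tgfb2 log2 ratio difference in immature mice between 1.19 and 1.89 (adjusted p 0.0327 to 0.114, exact permutation test) and that of Tgfb1 to Tgfb3 in mature mice between 1.92 and 2.80 (adjusted p 0.0381 to 0.0653). No direction of a called value reversed in these settings.

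Over all genes, the calls from baseline to 0dpr in immature mice were 2257, 802 with the block and 48 with only the samples compared, and those from 2 to 5dpr in mature mice were 3084 and 714. DESeq2 called more genes by age at baseline (334 against 124), at 0dpr (349 against 154) and at 2dpr (428 against 133). In 14 of 15 comparisons same-numbered samples did not deviate together in every pair (mean r -0.0124 over all 15). For age at 0dpr all 4 pairs did (r 0.109 to 0.207), and there the block gave 122 genes against 154 and 0 members either way. With the number as a block, Smad4 at 14dpr against baseline in immature mice was lost (adjusted p = 0.0784), and Smad2 in that comparison (0.0264) and Tgfb2 from 0 to 2dpr in mature mice (0.0499) were gained. The least counted member, Smad7, had 57 counts in its lowest sample, and the smallest difference detectable at this depth was not measured.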
